A study of Homo sapiens with 9 samples.

Results

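The genes described here encode transcription factors of 5 families, SOX, KLF, GATA, ETS and FOX, measured in HCT116 cells after silencing of H2A.X, a variant of histone H2A. They were chosen by symbol: SOX, KLF, GATA, ETV, ETS, ELF or ELK followed by a number, FOX followed by a letter and a number, and the ETS genes EHF, SPDEF, ERF, ERG and FLI1. The array table named 100 such genes among 14884 named genes, that is 19 SOX, 17 KLF, 6 GATA, 18 ETS and 40 FOX genes, and 11 further genes of the families have no probe set named here. HCT116 is an epithelial cell line from a human colorectal carcinoma. RNA came from shH2A.X cells, infected with a lentiviral shRNA against H2AFX, the older name of the H2A.X gene (5 arrays), and from shCTRL cells, infected with a scrambled shRNA (4 arrays). The cells of both groups went through puromycin selection and 72 h of culture in DMEM with 10% FBS, and 100 ng of RNA went on each Affymetrix Human Gene 2.0 ST array. The shH2A.X group rests on a single hairpin sequence in a single cell line. The study calls the replicates independent but names no separate cultures or infections, and the p-values therefore speak only of the spread between arrays, which may be technical in part. Silencing was not checked on the arrays, since no probe set named here belongs to H2A.X.

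SOX factors bend DNA through an HMG box and set cell fate in stem and progenitor cells. KLF factors bind GC-rich and CACCC elements through zinc fingers and balance proliferation and differentiation in epithelia, and GATA factors act as lineage factors, GATA4 and GATA6 in the gut and GATA1, GATA2 and GATA3 mainly in blood. ETS factors bind a GGAA core and several answer to Ras and ERK signalling, and FOX factors carry a forkhead domain and include the pioneer FOXA factors, the AKT-controlled FOXO factors and the mitotic regulator FOXM1. Several members act in the epithelial-mesenchymal transition (EMT), the process that the study addressed.

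The promoters of the members with the largest change in the SOX, KLF, GATA and ETS families are shown to identify these genes in the genome. Each sequence is the 250 bases upstream of the annotated start, read 5′ to 3′ on the strand of the gene, from the RefSeq table for GRCh38.p14. Capitals mark CCGCCC, letters of a KLF site.
SOX4: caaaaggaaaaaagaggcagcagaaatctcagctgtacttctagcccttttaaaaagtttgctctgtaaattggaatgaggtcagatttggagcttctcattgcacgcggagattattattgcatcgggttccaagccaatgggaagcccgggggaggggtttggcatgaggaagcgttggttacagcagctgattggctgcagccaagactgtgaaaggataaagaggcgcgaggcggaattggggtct
KLF9: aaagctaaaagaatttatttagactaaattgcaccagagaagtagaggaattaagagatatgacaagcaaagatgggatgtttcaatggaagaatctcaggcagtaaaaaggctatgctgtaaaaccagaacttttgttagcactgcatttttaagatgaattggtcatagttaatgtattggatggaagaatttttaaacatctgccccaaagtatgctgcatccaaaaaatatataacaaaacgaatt
GATA2: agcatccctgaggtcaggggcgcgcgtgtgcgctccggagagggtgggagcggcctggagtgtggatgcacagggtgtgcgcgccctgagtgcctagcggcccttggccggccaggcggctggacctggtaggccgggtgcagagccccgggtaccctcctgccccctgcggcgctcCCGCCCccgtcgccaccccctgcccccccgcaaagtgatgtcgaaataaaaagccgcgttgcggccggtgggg
EHF: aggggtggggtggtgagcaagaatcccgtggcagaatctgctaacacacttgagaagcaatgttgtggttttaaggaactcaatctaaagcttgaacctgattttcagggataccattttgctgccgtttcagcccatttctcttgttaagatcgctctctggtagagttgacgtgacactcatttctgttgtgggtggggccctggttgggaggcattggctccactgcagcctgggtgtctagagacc
The windows are chr6:21593501-21593750 on the plus strand for SOX4, chr9:70414658-70414907 on the minus strand for KLF9, chr3:128493202-128493451 on the minus strand for GATA2 and chr11:34624007-34624256 on the plus strand for EHF. Their GC content was 32.4% for KLF9, 48.8% for SOX4, 50% for EHF and 72.8% for GATA2, beside a median of 58% over all 27305 promoters of the table.

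Of the 100 members, 12 were higher and 15 were lower in shH2A.X than in shCTRL cells, and 73 did not pass the test (limma on log2 values, Benjamini-Hochberg adjusted p under 0.05 over all 14884 genes). The share of members called was 27%, beside 22.9% of all genes, of which 12.2% were higher and 10.7% lower. The members were brighter than most genes, as 86 had a mean above the median of all array values. Of these brighter members 30.2% were called, beside 30.4% of all genes above that median. When a change of at least 1.5-fold was also asked for, 5 members were higher (EHF, ETV1, GATA2, ETS1 and FOXF1), beside 2.36% of all genes, and 4 were lower (SOX4, KLF9, GATA6 and KLF7), beside 1.78%. The 9 members together stood beside 4.15% of all genes. Above the median of all values, the counts were 9 of 86 members and 587 of 10563 genes. No array of shH2A.X overlapped an array of shCTRL in 25 members, beside 22.8% of all genes, and the called members that did overlap were KLF2 and FOXP1. Above the median of all values, the groups did not overlap in 24 of 86 members and in 3229 of 10563 genes. The median log2 fold change was −0.01 over the members and 0.00 over all genes, and the members ranged from −1.36 for SOX4 to 1.68 for EHF. By family, the ETS calls were all higher, the KLF calls were all lower, and the SOX, GATA and FOX calls went both ways, a difference between families that was not tested. With replicate number as a block, the counts of members were 8 higher and 9 lower, and those of all genes 1270 higher and 1074 lower. Without the block, the counts of all genes were 1813 and 1591.

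**Figure D1:**
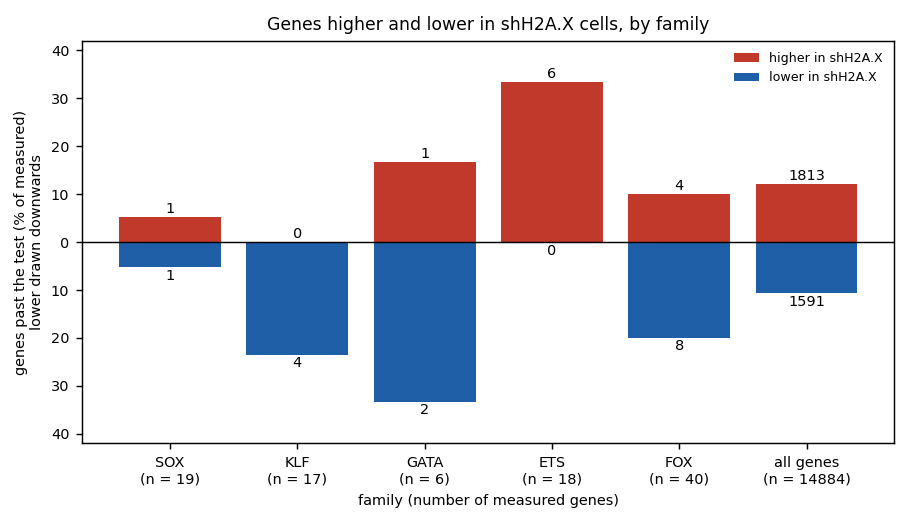
Percent of the measured genes of each family that passed the test (vertical axis, higher in shH2A.X upwards and lower downwards), beside all 14884 genes. The ETS family had 6 higher and 0 lower genes, and the KLF family 0 higher and 4 lower genes.

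**Figure D2:**
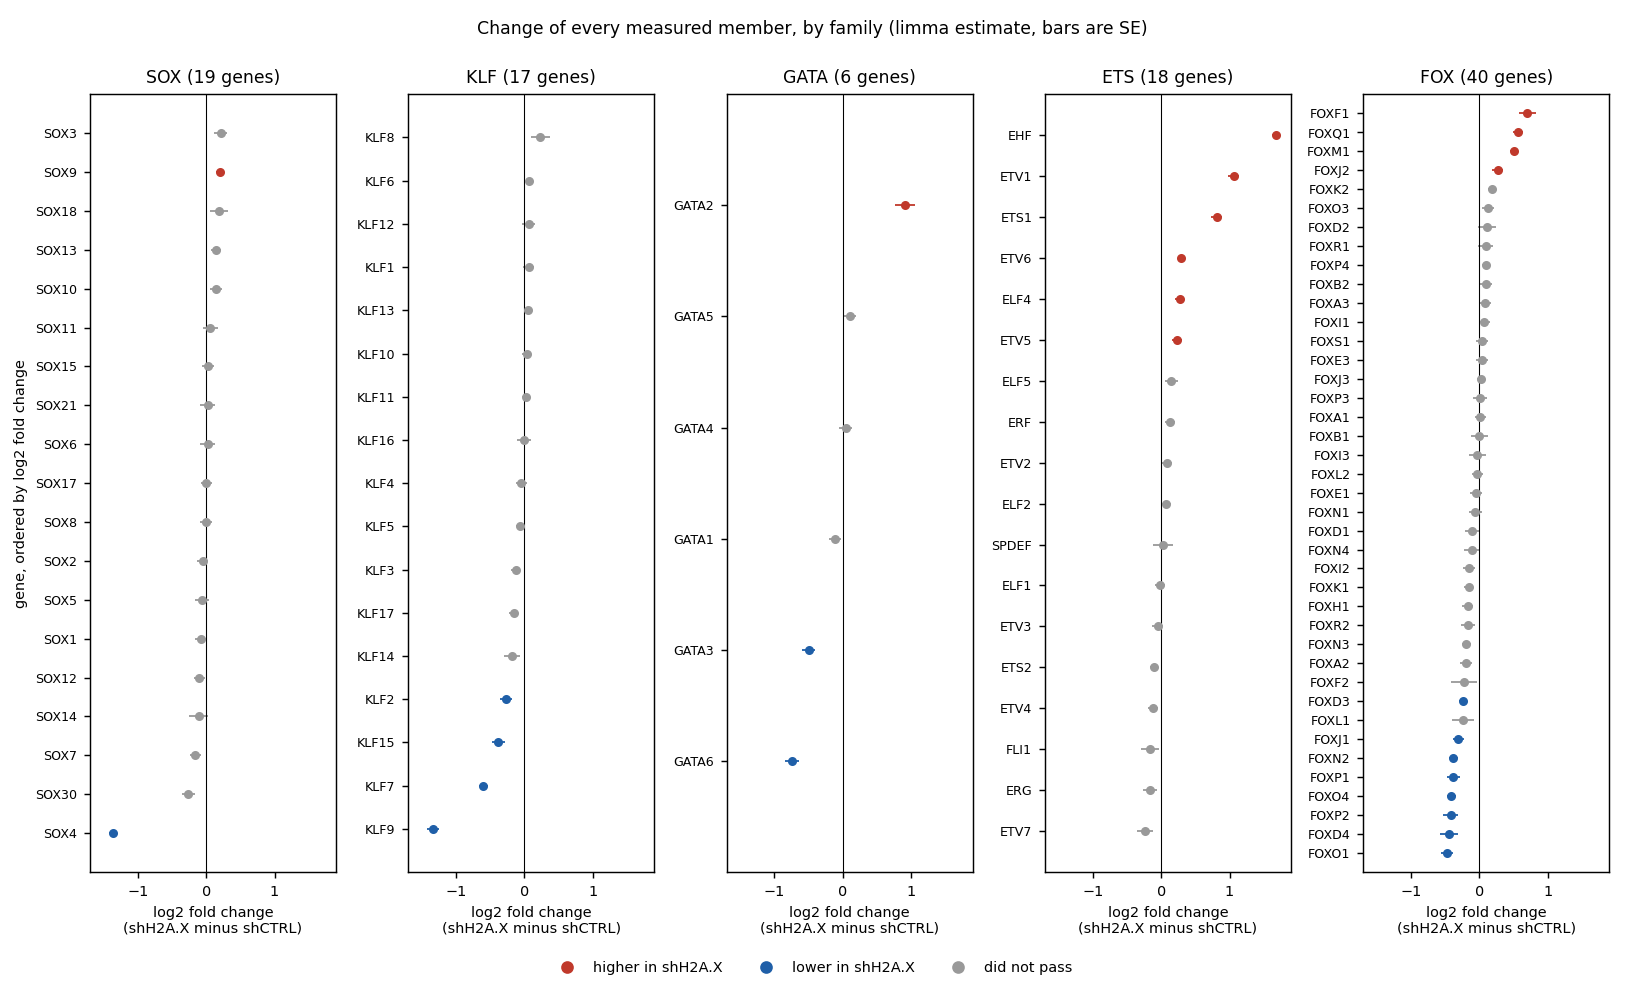
Log2 fold change (shH2A.X minus shCTRL) of each of the 100 members, in 1 panel a family, with points for the limma estimate and bars for its SE. EHF, at 1.68, is the highest and SOX4, at −1.36, the lowest.

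Across genes, arrays correlated at 0.9938 to 0.9953 within a group and at 0.9851 to 0.9860 between groups, and no array stood apart. A level below is a log2 expression value of 1 gene, and levels of different genes are not set against each other. The table holds no detection calls, so a gene is called dim where its mean lay below the median of all values, 4.5617, which was so for 14 members. Of 9 measured colorectal epithelium markers (of 12 listed), KRT20 and KRT19 rose, EPCAM fell and CEACAM5 was dim. Their summed linear signal was 5307 to 5828 in shH2A.X and 5442 to 5677 in shCTRL arrays. The rise of KRT19 (log2 fold change 0.64) and the fall of EPCAM (−0.67) offset each other in this sum. The sum therefore cannot show whether epithelial content changed. Of 3 measured fibroblast markers (of 9 listed), 0 passed in limma, with 1 at an unadjusted p under 0.05 and 1 in an equal-variance test, DCN and LUM were dim, and the summed signal was 47 to 60 in shH2A.X and 54 to 62 in shCTRL arrays. Of 4 measured leukocyte and endothelial markers (of 8 listed), 0 passed in limma, with 2 at an unadjusted p under 0.05 and 0 in the equal-variance test, 3 were dim, and the summed signal was 93 to 109 in shH2A.X and 95 to 108 in shCTRL arrays. In bulk samples, fewer cells that express a gene and less RNA per cell cannot be told apart.

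Among the 19 SOX genes, SOX4 fell, SOX9 rose slightly and 17 did not pass. SOX4 is a SOXC activator that acts in EMT in several carcinomas. Its log2 levels were 9.20, 9.21, 9.28, 9.07 and 9.20 in the shH2A.X arrays and 10.50, 10.62, 10.54 and 10.54 in the shCTRL arrays. The groups lay more than 1 log2 unit apart, with little spread within either. SOX4 averaged 9.19 ± 0.08 over the 5 shH2A.X arrays and 10.55 ± 0.05 over the 4 shCTRL arrays (mean ± SD), which is 2.57-fold lower (log2 fold change −1.36, SE 0.06, limma adjusted p = 3.83e-08). SOX9, which maintains progenitors of the intestinal crypt, had log2 levels of 10.50, 10.50, 10.45, 10.47 and 10.37 in shH2A.X and of 10.21, 10.30, 10.29 and 10.24 in shCTRL arrays. Its groups did not overlap, and the rise was 1.15-fold (log2 fold change 0.20, SE 0.05, limma adjusted p = 0.0211). The call of SOX9 was lost without shCTRL replicate 1 (adjusted p = 0.0568) or shH2A.X replicate 2 (0.0538), with replicate number as a block (0.0671) and with all probe sets tested (0.0649). SOX2, a pluripotency factor, averaged 4.83 ± 0.09 over the shH2A.X arrays and 4.89 ± 0.14 over the shCTRL arrays (mean ± SD) and did not pass. The 17 SOX genes that did not pass ranged from −0.26 for SOX30 to 0.21 for SOX3 in log2 fold change, and SOX3, SOX5, SOX6, SOX11 and SOX14 were dim. The share of SOX genes called was 10.5%, beside 22.9% of all genes. Of the 19 SOX genes, 14 had a mean above the median of all values, and 30.4% of all such genes were called.

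Of 17 KLF genes, 4 fell, 0 rose in limma and 13 did not pass. At an unadjusted p under 0.05, 0 rose and 4 fell, and in the equal-variance test 0 rose and 3 fell. With replicate number as a block, 2 fell. The share of KLF genes lower was 23.5%, where 10.7% of all genes were lower. Of the 17 KLF genes, 16 had a mean above the median of all values, and 14.1% of all such genes were lower. KLF9, a zinc finger factor induced by glucocorticoid and thyroid hormone, had log2 levels of 4.96, 5.36, 5.12, 5.04 and 5.02 in shH2A.X and of 6.41, 6.63, 6.28 and 6.44 in shCTRL arrays. Every shH2A.X array lay well below every shCTRL array. KLF9 averaged 5.10 ± 0.16 over the 5 shH2A.X arrays and 6.44 ± 0.14 over the 4 shCTRL arrays (mean ± SD), which is 2.53-fold lower (log2 fold change −1.34, SE 0.09, limma adjusted p = 1.36e-06). KLF7, which acts in the growth of neurons, had log2 levels of 7.86, 8.02, 7.98, 8.04 and 7.91 in shH2A.X and of 8.47, 8.55, 8.60 and 8.62 in shCTRL arrays, without overlap. It was 1.52-fold lower (log2 fold change −0.60, SE 0.06, limma adjusted p = 3.28e-05). KLF15, a regulator of glucose and amino acid metabolism, had log2 levels of 4.56, 4.49, 4.25, 4.44 and 4.49 in shH2A.X and of 4.70, 5.05, 4.94 and 4.61 in shCTRL arrays. The groups lay close together and did not overlap, and the shH2A.X mean, 4.44, lay below the median of all values, so the size of the fall is uncertain (log2 fold change −0.38, SE 0.10, limma adjusted p = 0.0146, and 0.0542 with replicate number as a block). KLF2, a quiescence factor of endothelium and T cells, had log2 levels of 8.44, 8.41, 8.56, 8.16 and 8.18 in shH2A.X and of 8.55, 8.68, 8.62 and 8.62 in shCTRL arrays. Here shH2A.X replicate 3 reached into the range of shCTRL, and the call lay close to the threshold (log2 fold change −0.27, SE 0.09, limma adjusted p = 0.0461). The call of KLF2 was lost without shCTRL replicate 1 (0.0628), 2 (0.112), 3 (0.0859) or 4 (0.0891), without shH2A.X replicate 1 (0.0515), 2 (0.0629), 4 (0.0941) or 5 (0.0989), and in 4 of the other alternatives. The KLF genes best known from the intestine did not pass. KLF4, which acts in differentiation, had a log2 fold change of −0.05 (SE 0.08), KLF5, which acts in crypt proliferation, of −0.07 (SE 0.06), KLF6 of 0.07 (SE 0.05) and KLF3, a repressor, of −0.13 (SE 0.07). The 13 KLF genes that did not pass ranged from −0.18 for KLF14 to 0.23 for KLF8.

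Of 6 GATA genes, GATA2 rose, GATA6 and GATA3 fell and 3 did not pass. The share called was 50%, beside 22.9% of all genes. All 6 had a mean above the median of all values, and 30.4% of all such genes were called. GATA2, a factor of blood progenitors, had log2 levels of 6.64, 6.27, 6.61, 6.40 and 6.26 in shH2A.X and of 5.43, 5.86, 5.66 and 5.15 in shCTRL arrays. The shCTRL arrays were spread widely, and none reached the shH2A.X arrays. GATA2 averaged 6.43 ± 0.18 over the 5 shH2A.X arrays and 5.53 ± 0.31 over the 4 shCTRL arrays (mean ± SD), which is 1.88-fold higher (log2 fold change 0.91, SE 0.14, limma adjusted p = 0.000574). GATA6, which maintains epithelial identity in the gut, had log2 levels of 7.20, 6.88, 6.94, 6.66 and 6.91 in shH2A.X and of 7.54, 7.72, 7.67 and 7.67 in shCTRL arrays. All shH2A.X arrays were lower, with replicate 1 nearest to shCTRL. GATA6 averaged 6.92 ± 0.20 over the 5 shH2A.X arrays and 7.65 ± 0.08 over the 4 shCTRL arrays (mean ± SD), which is 1.67-fold lower (log2 fold change −0.74, SE 0.10, limma adjusted p = 0.000194). GATA3, a factor of T cells and of the luminal breast, had log2 levels of 5.52, 5.69, 5.39, 5.21 and 5.25 in shH2A.X and of 5.92, 5.87, 6.02 and 5.86 in shCTRL arrays. Its groups did not overlap, and the fall was 1.42-fold (log2 fold change −0.50, SE 0.10, limma adjusted p = 0.00266). GATA4, which acts in the upper small intestine, had a log2 fold change of 0.04 (SE 0.09), GATA5 of 0.11 (SE 0.09) and GATA1, the erythroid factor, of −0.11 (SE 0.09).

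Of 18 ETS genes, 6 rose, 0 fell in limma and 12 did not pass. At an unadjusted p under 0.05 and in the equal-variance test, too, 0 fell and 6 rose. The share of ETS genes higher was 33.3%, where 12.2% of all genes were higher. Of the 18 ETS genes, 15 had a mean above the median of all values, and 16.3% of all such genes were higher. EHF, a factor of glandular epithelia, had log2 levels of 10.00, 10.01, 10.05, 10.02 and 10.15 in shH2A.X and of 8.35, 8.32, 8.35 and 8.44 in shCTRL arrays. The groups lay far apart and each was narrow. EHF averaged 10.05 ± 0.06 over the 5 shH2A.X arrays and 8.37 ± 0.05 over the 4 shCTRL arrays (mean ± SD), which is 3.21-fold higher (log2 fold change 1.68, SE 0.06, limma adjusted p = 8.31e-09). ETV1, a PEA3 factor downstream of receptor tyrosine kinases, had log2 levels of 7.35, 7.64, 7.53, 7.44 and 7.53 in shH2A.X and of 6.47, 6.42, 6.27 and 6.60 in shCTRL arrays, without overlap. It was 2.08-fold higher (log2 fold change 1.06, SE 0.08, limma adjusted p = 2.91e-06). ETS1, a factor of lymphoid cells that is linked to invasion in carcinomas, had log2 levels of 6.45, 6.49, 6.63, 6.48 and 6.66 in shH2A.X and of 5.94, 5.67, 5.68 and 5.63 in shCTRL arrays. Replicate 1 of shCTRL lay above the other controls and below every shH2A.X array. ETS1 was 1.76-fold higher (log2 fold change 0.81, SE 0.08, limma adjusted p = 2.24e-05). Smaller rises were those of the repressor ETV6 (0.29, SE 0.05, limma adjusted p = 0.00219), of ELF4 (0.27, SE 0.06, limma adjusted p = 0.00806) and of the PEA3 factor ETV5 (0.23, SE 0.07, limma adjusted p = 0.0265). The groups of these 3 genes did not overlap. The call of ELF4 was lost with replicate number as a block (0.0519). That of ETV5 was lost without shCTRL replicate 1 (0.0698) or 4 (0.0753), without shH2A.X replicate 5 (0.0589), with the block (0.134) and with all probe sets tested (0.0742). ETV4, the remaining PEA3 factor, had a log2 fold change of −0.12 (SE 0.07), ETS2 of −0.10 (SE 0.06) and SPDEF, a goblet cell factor, of 0.03 (SE 0.15), and these did not pass. The 12 ETS genes that did not pass ranged from −0.24 for ETV7 to 0.15 for ELF5, and ELF5, ERG and FLI1 were dim.

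**Figure D3:**
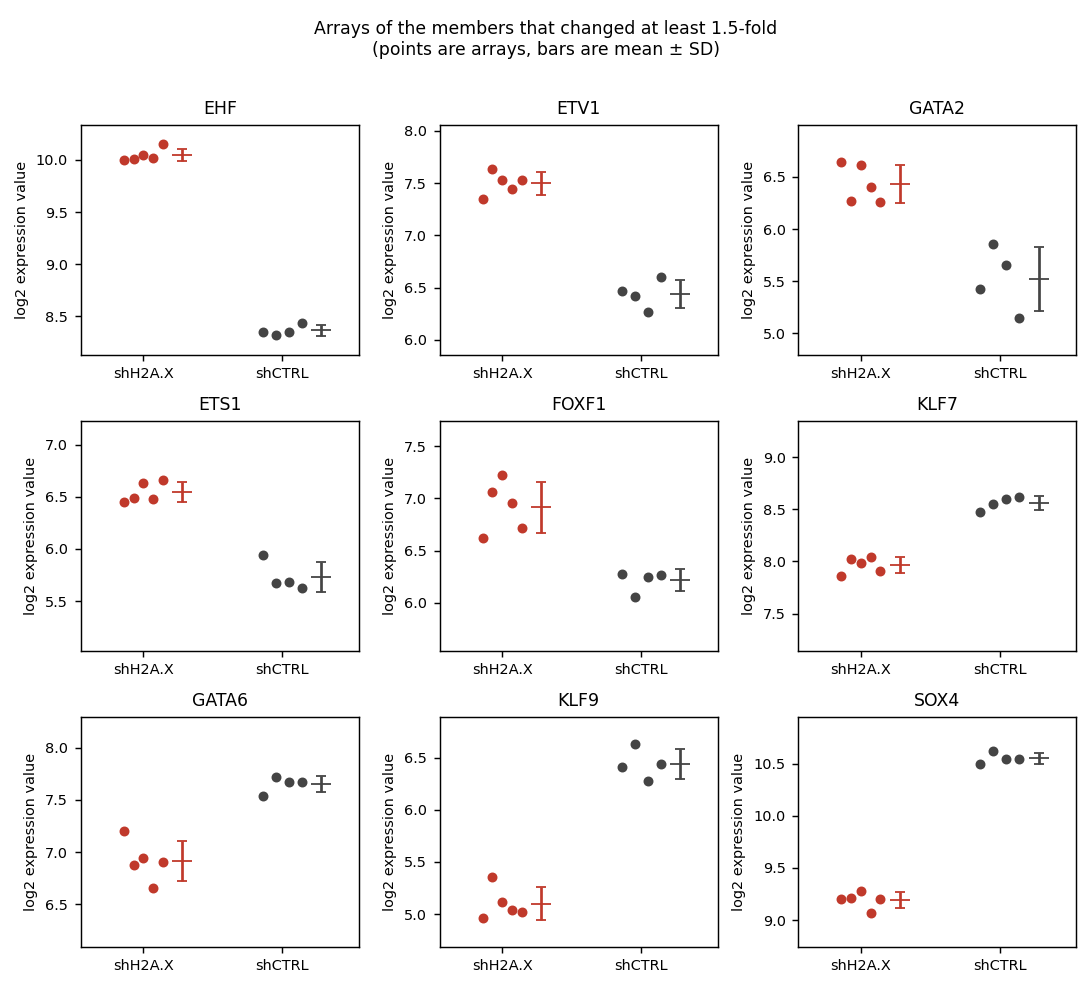
Log2 expression value (vertical axis) of the 9 members with a fold change of at least 1.5, with points for arrays, bars for mean ± SD, and shH2A.X (n = 5) left of shCTRL (n = 4) in each panel. The arrays of the groups do not overlap in any of the 9.

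Of 40 FOX genes, 4 rose, 8 fell and 28 did not pass, a share called of 30%, beside 22.9% of all genes. Of the 40 FOX genes, 35 had a mean above the median of all values, and 30.4% of all such genes were called. Every fall was smaller than 1.5-fold, and of the rises that of FOXF1 exceeded this size. FOXF1, a factor of the gut mesenchyme, had log2 levels of 6.62, 7.06, 7.22, 6.96 and 6.72 in shH2A.X and of 6.28, 6.06, 6.25 and 6.27 in shCTRL arrays. The shH2A.X arrays were spread widely and all lay above shCTRL. FOXF1 averaged 6.91 ± 0.25 over the 5 shH2A.X arrays and 6.22 ± 0.11 over the 4 shCTRL arrays (mean ± SD), which is 1.62-fold higher (log2 fold change 0.70, SE 0.12, limma adjusted p = 0.00106). FOXQ1, which can drive EMT in carcinoma cells, had log2 levels of 6.35, 6.40, 6.49, 6.46 and 6.58 in shH2A.X and of 5.91, 5.97, 5.96 and 5.74 in shCTRL arrays (log2 fold change 0.56, SE 0.07, limma adjusted p = 0.000156). FOXM1, the activator of mitotic genes, had log2 levels of 8.79, 8.88, 8.88, 8.77 and 8.86 in shH2A.X and of 8.30, 8.37, 8.27 and 8.39 in shCTRL arrays (log2 fold change 0.50, SE 0.06, limma adjusted p = 6.32e-05). Neither gene overlapped between the groups. FOXJ2 rose by 0.27 (SE 0.08, limma adjusted p = 0.0339). Its call was lost without shCTRL replicate 2 (0.0880), 3 (0.0571) or 4 (0.0547), without shH2A.X replicate 1 (0.0639), 2 (0.0763) or 3 (0.0722), and in 3 of the other alternatives. Of the FOXO factors, which AKT keeps out of the nucleus, FOXO1 had log2 levels of 5.85, 6.14, 6.03, 5.98 and 5.72 in shH2A.X and of 6.51, 6.46, 6.34 and 6.35 in shCTRL arrays, without overlap. It fell by 0.47 on the log2 scale (SE 0.09, limma adjusted p = 0.00209). FOXO4 had log2 levels of 6.52, 6.71, 6.65, 6.42 and 6.64 in shH2A.X and of 6.90, 7.01, 7.01 and 7.08 in shCTRL arrays and fell by 0.41 (SE 0.07, limma adjusted p = 0.00148). FOXO3 did not pass by its brighter probe set (0.12, SE 0.09), and its other probe set gave −0.08 (SE 0.10). FOXN2 fell by 0.38 (SE 0.06, limma adjusted p = 0.000534). The repressors FOXP2 and FOXP1 fell by 0.42 (SE 0.11, limma adjusted p = 0.0144) and 0.38 (SE 0.10, limma adjusted p = 0.0164), and FOXJ1, the master factor of motile cilia, by 0.31 (SE 0.08, limma adjusted p = 0.0183). The call of FOXP1 was lost without shCTRL replicate 3 (0.0513) and with replicate number as a block (0.0625), and that of FOXJ1 with the block (0.0596) and with all probe sets tested (0.0541). FOXD4 had log2 levels of 8.97, 8.29, 8.82, 8.65 and 8.92 in shH2A.X and of 9.13, 9.17, 9.01 and 9.40 in shCTRL arrays and fell by 0.45 (SE 0.13, limma adjusted p = 0.0292). Near-identical FOXD4-like genes may share its signal, so its value is uncertain. Its call was lost without shCTRL replicate 1 (0.0536), 2 (0.0595) or 4 (0.0876), without shH2A.X replicate 4 (0.0614) and in 3 of the other alternatives. FOXD3, a neural crest factor, fell by 0.24 (SE 0.06, limma adjusted p = 0.0166) but was dim, at 3.84 in shH2A.X and 4.08 in shCTRL cells, and was lost in 3 alternatives. Of the FOXA factors, pioneers of endoderm, FOXA1 had a log2 fold change of 0.01 (SE 0.08) and FOXA2 of −0.20 (SE 0.09), and FOXA2 passed without shCTRL replicate 1 (0.0466). The 28 FOX genes that did not pass ranged from −0.24 for FOXL1 to 0.18 for FOXK2.

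**Figure D4:**
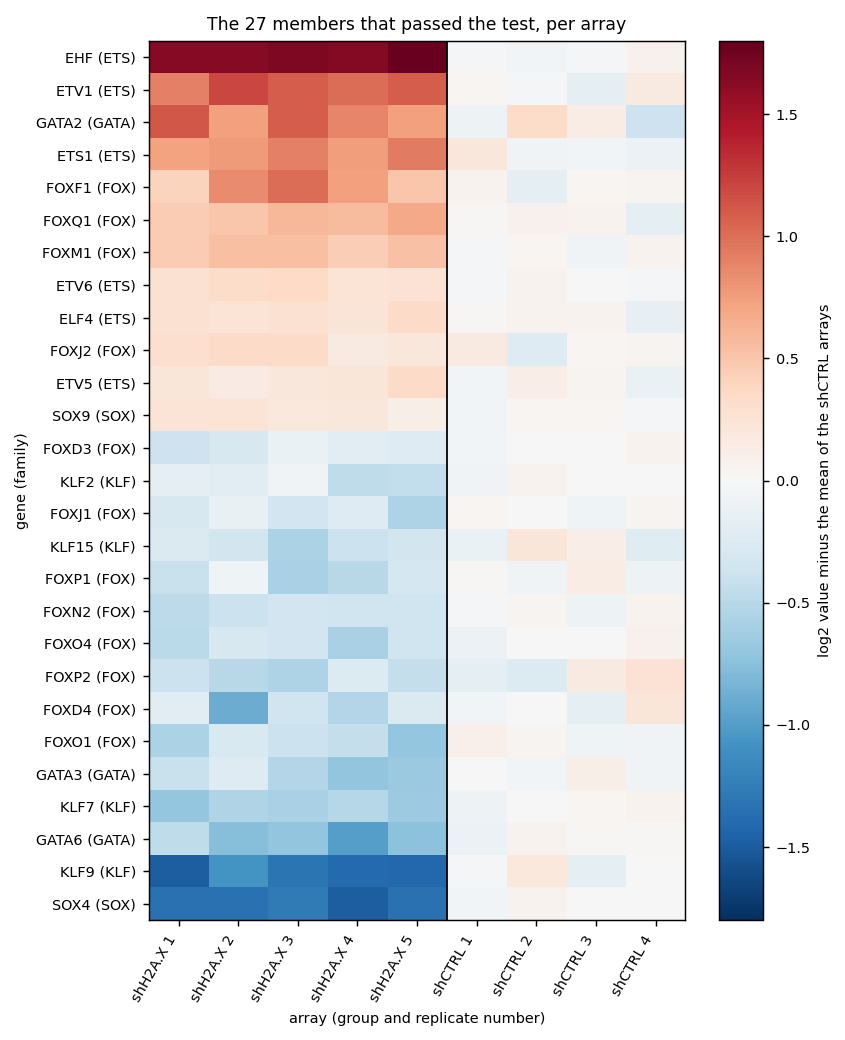
Log2 value minus the mean of the shCTRL arrays for the 27 members that passed the test (rows) in each array (columns, 5 shH2A.X left of 4 shCTRL). EHF and SOX4 show the widest differences, with log2 fold changes of 1.68 and −1.36.

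The changes of close relatives were set against each other. Genes of 20 subfamilies gave 52 pairs, and the difference between the log2 fold changes of a pair was tested by exact permutation of the group labels (126 splits, two-sided), with adjustment over the pairs. Of the pairs, 21 passed at an adjusted p under 0.05, and 20 of these 21 held a gene already called above, as did 32 of all 52 pairs. The pairs were chosen after values were seen and rest on the same arrays as the calls. They are descriptions of these genes and add no separate support for the calls, and no share over unrelated pairs was computed. The smallest p that the design allows was 0.00794, which gave an adjusted p of 0.0258. Of the SOXC genes, SOX12 lay 1.26 (SE 0.10) and the dim SOX11 lay 1.42 (SE 0.16) above SOX4 (exact permutation test, adjusted p = 0.0258 each). KLF13, KLF14 and KLF16 lay 1.39 (SE 0.11), 1.16 (SE 0.15) and 1.33 (SE 0.16) above KLF9, and KLF6 lay 0.67 (SE 0.05) above KLF7, at the same adjusted p. GATA2 lay 1.41 (SE 0.19) above GATA3 and 1.02 (SE 0.17) above GATA1, also at that p. GATA4 and GATA5 lay 0.78 (SE 0.18) and 0.84 (SE 0.17) above GATA6 (exact permutation test, adjusted p = 0.0393 each). The PEA3 factors all differed among themselves: ETV1 lay 1.18 (SE 0.12) above ETV4 and 0.83 (SE 0.13) above ETV5, and ETV5 lay 0.35 (SE 0.09) above ETV4 (exact permutation test, adjusted p = 0.0258 each). ETS1 lay 0.91 (SE 0.08) above ETS2 and EHF lay 1.53 (SE 0.08) above the dim ELF5, at the same adjusted p. FOXO3 lay 0.54 (SE 0.14) above FOXO4 and 0.59 (SE 0.15) above FOXO1, of which the first passed and the second did not (exact permutation test, adjusted p = 0.0393 and 0.0516). With the other probe set of FOXO3, an alternative likewise added after seeing the data, these differences were 0.33 (SE 0.12) and 0.38 (SE 0.16). Neither passed (exact permutation test, adjusted p = 0.0688 and 0.114). FOXO4 and FOXO1 differed by 0.06 (SE 0.11, exact permutation test, adjusted p = 0.688). FOXP4 lay 0.47 (SE 0.09) above FOXP1 and 0.51 (SE 0.13) above FOXP2 (exact permutation test, adjusted p = 0.0393 and 0.0258). The change of FOXF1 lay 0.92 (SE 0.30) above that of FOXF2 and did not pass (exact permutation test, adjusted p = 0.0660). Nor did that of SOX9, 0.20 (SE 0.12) above SOX8 (exact permutation test, adjusted p = 0.236).

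Some members are neighbours in the genome, with at most 2 protein-coding genes between them, and in none of these pairs did both genes pass. The pairs were few and 27% of all members were called, so the lack of such a pair is no result about neighbouring genes. EHF and ELF5 are adjacent on chromosome 11, with log2 fold changes of 1.68 and 0.15. ETS1 and FLI1 are adjacent on the same chromosome, with 0.81 and −0.16. FOXQ1 and FOXF2 on chromosome 6, with 1 protein-coding gene between them, had 0.56 and −0.22, and FOXF1 and FOXL1 on chromosome 16, with 2 between them, had 0.70 and −0.24. ELF5 and FLI1 were dim, which limits what could be seen of them.

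Genes that work with these families were described by counts beside all genes, where 12.2% were higher, 10.7% were lower and the median log2 fold change was 0.00. The lists were chosen with earlier results of these data known, so the counts are descriptions. Of 35 listed cofactors and partners 19 were measured, and 3 rose and 2 fell (median −0.04). The histone acetyltransferase genes CREBBP and EP300, recruited by many of these factors, rose by 0.43 (SE 0.06) and 0.24 (SE 0.08), and WWP1, a ubiquitin ligase that targets KLF5, by 0.31 (SE 0.07). LDB1, which bridges GATA and LMO proteins, fell by 0.31 (SE 0.06), and LMO4 fell by 0.22 (SE 0.07). Of 36 other intestinal and epithelial transcription factors 21 were measured, and 5 fell and 0 rose in limma (median −0.03, with 0 higher at an unadjusted p under 0.05 and 0 in the equal-variance test). GRHL2, which maintains epithelial junction genes, averaged 4.52 in shH2A.X and 7.28 in shCTRL cells (limma adjusted p = 8.73e-09). The shH2A.X mean lay below the median of all values, so the size of this fall is uncertain. GRHL1 fell by 0.74 (SE 0.10), OVOL1, an inhibitor of EMT, by 0.69 (SE 0.10), GRHL3, which was dim, by 0.50 (SE 0.15) and MYB, a crypt progenitor factor whose shH2A.X mean of 4.54 also lay below that median, by 0.45 (SE 0.10). The 16 that did not pass included OVOL2 (log2 fold change 0.07, SE 0.07), CDX1 (0.03, SE 0.08) and CDX2 (−0.03, SE 0.08).

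Known target genes of FOXM1, of FOXO factors and of ERK and ETS signalling were counted in the same way, beside 12.2% of all genes higher and 10.7% lower. These lists, too, were chosen with earlier results of these data known. Their shares therefore add no support for a change in the activity of these factors, which was not tested. Of 22 FOXM1 targets 17 were measured, and 11 rose (64.7%) and 1 fell (5.88%), none by 1.5-fold (median 0.25). All 17 had a mean above the median of all values, and of all such genes 16.3% were higher and 14.1% lower. The median SD within groups was 0.060 for these targets and 0.113 for all genes above that median, so small changes pass more easily among these targets. TOP2A, a mitotic topoisomerase, averaged 10.90 in shH2A.X and 10.48 in shCTRL cells, and the mitotic kinase gene AURKA averaged 8.54 in shH2A.X and 8.16 in shCTRL cells. The gene that fell was HMMR, which encodes a spindle protein, by 0.33 (SE 0.08). Of 24 FOXO targets 17 were measured, and 3 rose (17.6%) and 6 fell (35.3%), the member KLF15 among the 6 (median −0.03). SESN3, a stress-induced inhibitor of mTORC1, fell by 0.86 (SE 0.10), and BCL6, a repressor, by 0.69 (SE 0.07). The 3 that rose were CAT, which encodes catalase, by 0.51 (SE 0.06), IRS2, an insulin receptor substrate, by 0.33 (SE 0.08), and BCL2L11, which encodes the apoptosis inducer BIM, by 0.32 (SE 0.08). Of 31 ERK and ETS target genes 21 were measured, and 8 rose and 8 fell, 38.1% each. The early response gene EGR1 averaged 7.36 in shH2A.X and 9.74 in shCTRL cells, and MYC averaged 8.06 in shH2A.X and 9.79 in shCTRL cells. The ERK phosphatase genes went both ways: DUSP6 fell by 1.01 (SE 0.05) and DUSP5 by 0.67 (SE 0.07), while DUSP4 rose by 1.17 (SE 0.07). FOSL1, an AP-1 gene, rose by 1.15 (SE 0.05), the receptor genes EPHA2 and EPHA4 by 1.08 (SE 0.05) and 0.87 (SE 0.12), the cyclin gene CCND1 by 0.83 (SE 0.05) and SPRY2, an inhibitor of receptor signalling, by 0.65 (SE 0.08).

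The promoter table held 73 of the 100 members, 7 that rose, 13 that fell and 53 that did not pass. Letters of 6 kinds of sites were searched on both strands in the 250 bases upstream of the start, and a match is a description of the sequence. CCACACCC or CCGCCC, letters of KLF sites, were in 65.8% of the members' promoters and in 43.9% of all 27305 promoters. By result, 5 of the 7 promoters of members that rose, 4 of the 13 of members that fell and 39 of the 53 of members that did not pass held them. Median GC content was 66.8% in the members' promoters, beside 58% in all promoters, and by result it was 72.8% in those that rose, 60.8% in those that fell and 67.2% in those that did not pass. CAGGTG, the E-box that Slug and ZEB1 bind, was in 17.8% of the members' and 17.5% of all promoters, and among the members that passed it was in those of FOXJ2 and FOXD4. CCGGAAG, letters of ETS sites, was in 2.74% of the members' and 8.82% of all promoters, and GATA3 was the called member that held it. AGATAA or TGATAA, letters of GATA sites, were in 13.7% of the members' and 14.9% of all promoters. TGTTTAC, letters of forkhead sites, was in 2.74% and 2.98%, and AACAAAG or AACAATG, letters of SOX sites, were in 6.85% and 7.21% in the same order.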

How the data were processed

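RNA of HCT116 cells was measured on 9 Affymetrix Human Gene 2.0 ST arrays, 5 of shH2A.X and 4 of shCTRL, grouped by the labels (the methods give equal numbers). The authors deposited log2 values of 53617 probe sets, normalized between arrays. Submitters' notes name Affymetrix Expression Console and Partek 6.6, and how background was corrected and arrays were normalized is not stated there or in the methods. Platform annotation gave 1 symbol to 16098 probe sets and several to 0, and left 37519 without a name here. These gave 14884 genes. Where a gene had several probe sets (779 genes), that with the highest mean stood for it. The number of arrays limits the precision.

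Log2 values were fitted with limma 3.58.1 in R 4.3.3 (lmFit, eBayes, Benjamini-Hochberg adjustment over all genes), checked on simulated data. Members that passed were named, with full values for up to 3 rises and 3 falls a family, as were well-known members whatever their result and other listed genes with a fold of at least 1.5. The members and lists were chosen with earlier results of these data known. Pairs of relatives, promoter letters, the ends of ranges, and listed genes named below that fold were chosen after values were seen. The fit was repeated without each array, with dim genes filtered out, with array weights, with a mean-variance trend, with an equal-variance test, after quantile normalization or median centring, on all probe sets or their mean per gene, and with the replicate number as a block.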

Additional observations from a re-analysis of the deposited data

Results flagged for a closer look

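Of 78 groups of arrays of named members tested, 4 held an array that stood apart from the rest of its group by Dixon's criterion at the 95% level, where chance gives about 1 group in 20. ETS1 was 5.94 in shCTRL replicate 1, beside 5.63 to 5.68 in the other shCTRL arrays. FOXF1 was 6.06 in shCTRL replicate 2, beside 6.25 to 6.28 in the others. SOX2 was 4.99 in shH2A.X replicate 4, beside 4.78 to 4.81 in the others. ETV4 was 7.62 in shCTRL replicate 1, beside 7.76 to 7.78 in the others. The calls of ETS1 and FOXF1 stood without these arrays.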

How the results depend on the processing

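Of the 27 members called, 17 kept their call in every alternative run for them, 10 lost it in at least 1, and 0 reversed. Leaving out 1 array gave 10 to 13 members higher and 13 to 16 lower. Over all genes it gave 1532 to 1680 higher and 1326 to 1505 lower, against 1813 and 1591. With replicate number as a block, 9 members were lower and 8 higher, against 15 and 12. Over all genes the block gave 1074 lower and 1270 higher, against 1591 and 1813. Deviations of arrays with the same number correlated at −0.004, 0.024, −0.068 and −0.086, which shows no sign of pairing by number. Arrays with different numbers were not compared, so this check cannot decide the question. No shCTRL array carries the number of shH2A.X replicate 5, so that array adds nothing to the group difference with the block. By family, the block gave 4 FOX, 2 KLF and 0 SOX genes in place of 8 lower, 4 lower and 1 higher, and testing all probe sets gave 5 FOX genes lower and 0 SOX genes higher. SOX counts also moved when 1 array was left out, to 2 higher without shCTRL replicate 3, 0 higher without shH2A.X replicate 2, and 2 lower without shCTRL replicate 2 or shH2A.X replicate 3. FOXD3 could not be tested with the filter on dim genes. Of 12 well-known members that did not pass, 1 gained a call and 3 changed sign without a call. The cause of these moves was not tested. Without detection calls, small changes of the 14 dim members may have been missed.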

Other observations

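Among genes with symbols like those of the members, FOXD4L6, a near-identical copy of FOXD4, averaged 6.25 in shH2A.X and 6.51 in shCTRL cells (log2 fold change −0.26, SE 0.08, limma adjusted p = 0.0378), and its groups overlapped. The other copies measured did not pass: FOXD4L1 had a log2 fold change of 0.10 (SE 0.13, limma adjusted p = 0.654) and FOXD4L5 of −0.04 (SE 0.11, limma adjusted p = 0.845). SNAI2 and ZEB1, which encode the EMT factors Slug and ZEB1, had log2 fold changes of 1.81 (SE 0.14) and 1.26 (SE 0.09, limma adjusted p = 3.53e-06 and 1.34e-06). The members closest to the threshold were ETV5, FOXD4, FOXJ2 and KLF2 inside it, and FOXK2 (adjusted p = 0.0664), FOXN3 (0.0731), SOX30 (0.0772) and FOXK1 (0.0995) outside it. Of members with a mean above the median of all values, 30.2% were called, beside 30.4% of all such genes.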
